A study of Mus musculus with 20 samples.

Results

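Klf4, Irs1, Irs2, Basp1, Pak1, Egfr and Parp1 are 7 genes that have been reported as targets of the microRNA miR-7. They were chosen by gene symbol, and all 7 were present in each of the 4 deposited tables, which together list 14700 genes. Their RNA was followed in 20 libraries of total RNA from mouse primary cortical neurons, prepared from cortices at embryonic day 15 and grown for 7 days. Cultures were wild type (WT) or knockout (KO) for the circular RNA ciRS-7, and were held for 12 h in normoxia (N) with glucose at 25 mM and pyruvate at 0.2 mM, or deprived of oxygen and glucose (OGD), at 1% oxygen in medium to which neither was added. Each condition and genotype (N_WT and N_KO, OGD_WT and OGD_KO) was represented by 5 libraries, which the series calls biological replicates. The strain label, C57BL/6N-Cdr1asem1Nikr, is given to WT and KO samples alike, and the labels do not say whether cultures came from separate animals. The p-values therefore measure the spread between these cultures in the deposited values. In these, replicates 1 and 3 were the lowest or highest of their group less often than the other replicates. Whether the values had been adjusted for batch before deposition was not tested.

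A microRNA guides an Argonaute protein to messenger RNAs, mostly through pairing of its seed, a short stretch near its 5′ end, with sites in 3′ untranslated regions (3′ UTRs), and the bound messages are degraded or translated less. ciRS-7, made from the Cdr1as locus, is abundant in neurons and is known for its many binding sites for miR-7. The 7 genes act at different levels of growth signalling and neuronal structure: a receptor (Egfr), adaptors of insulin signalling (Irs1, Irs2), a kinase of the cytoskeleton (Pak1), a growth cone protein (Basp1) and nuclear proteins (Klf4, Parp1).

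The mature forms of miR-7 are shown first because their shared seed defines the sites searched for. The sequences are those of RefSeq on GRCm38.p6, with the seed, bases 2 to 8 from the 5′ end, in capitals. The miR-7a-5p sequence is encoded by both Mir7-1 and Mir7-2.
miR-7a-5p: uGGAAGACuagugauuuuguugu
miR-7b-5p: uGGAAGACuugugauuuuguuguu

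Of the 7 genes, 6 held at least 1 match of 7 or 8 bases to this seed in the 3′ UTR of their longest coding transcript in GENCODE M21 (mm10). Such a match was present in 26.8% of the 12294 genes with an annotated 3′ UTR. Matches were searched on the transcribed strand only, as GTCTTCCA (8mer), GTCTTCC without the final A (7mer-m8), TCTTCCA without the leading G (7mer-A1) and TCTTCC with neither (6mer), and each place was counted under its longest form. An 8mer was present in 4.4% of those genes, a 7mer-m8 in 10.9% and a 7mer-A1 in 16.3%. Targets are commonly nominated by such letters, so that this share only describes the list. Each 7-base or 8-base match is printed in capitals within 30 bases, because it is the stretch that can pair with the seed.
Irs1 7mer-m8, minus strand, chr1:82237502-82237531: tcacaaccaggacctcacGTCTTCCtcttc
Irs2 7mer-m8, minus strand, chr8:10985521-10985550: tttaatggcaatgcagctGTCTTCCtgctt
Irs2 8mer, minus strand, chr8:10984829-10984858: agacttgccctccctgttGTCTTCCActgt
Egfr 7mer-A1, plus strand, chr11:16914284-16914313: gtcttagctcagcttaacTCTTCCAtagtt
Basp1 7mer-A1, minus strand, chr15:25363420-25363449: tcactgcagcgccagtttTCTTCCAtctgt
Klf4 7mer-m8 (first), minus strand, chr4:55528040-55528069: tttctaacctttcacactGTCTTCCcacga
Klf4 7mer-m8 (second), minus strand, chr4:55527464-55527493: caaggaaaatctagttttGTCTTCCgatct
Parp1 8mer, plus strand, chr1:180601156-180601185: ttgcatttgggattctatGTCTTCCAaatt

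Klf4 and Irs2 held 2 such matches each, and 7.0% of genes held 2 or more. Egfr held a single one, 2447 bases after the stop codon, together with 6 6mers along a 3′ UTR of 6303 bases. Irs1 held 1 7mer-m8 and 1 6mer. No form of the match was present in the 3′ UTR of Pak1, which says only that these letters are not in that annotated sequence. When all annotated coding transcripts were merged, Egfr had 2 matches of 7 or 8 bases and the other genes kept their counts.

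**Figure D1:**
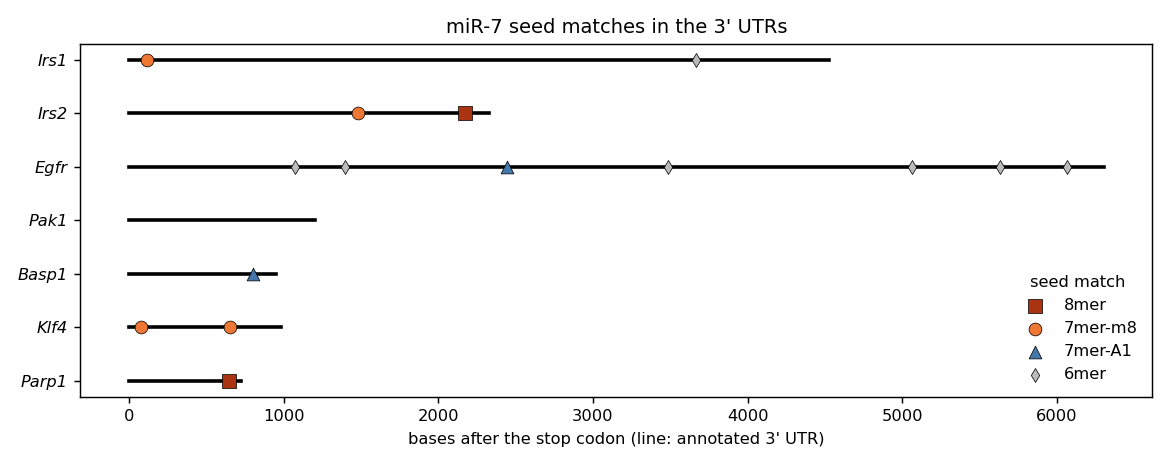
Position of each miR-7 seed match (symbols, by form) along the annotated 3′ UTR (line) of the longest coding transcript, in bases after the stop codon. Egfr carries 7 matches over 6303 bases, Pak1 none, and the Parp1 8mer lies 643 bases after the stop codon in a 3′ UTR of 723 bases.

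Sequencing depth lay between 7071506 and 16658618 recovered reads per library. The locus listed as Cdr1as, used to check the genotype labels, had 545 to 1912 reads in WT libraries and 2 to 16 reads in KO libraries. Its level was lower in KO by 6.32 on the log2 scale in normoxia (fitted difference -6.32 ± 0.19 SE; limma, adjusted p = 5.81e-14) and by 6.26 under OGD (-6.26 ± 0.30 SE; limma, adjusted p = 1.03e-09). The mitochondrial ribosomal RNA mt-Rnr2 took 10.1% to 16.5% of reads in normoxia and 13.8% to 32.0% under OGD, with the highest share in OGD_KO replicate 5, which also had the lowest median correlation with its own group (0.957). Neuron markers were all present, and their summed level ranged from 4260 to 5680 CPM (reads relative to the depth of the library) in normoxia and from 2810 to 5120 CPM under OGD. The neuron sum is carried mostly by Map2, which was not called (-0.20 in WT and -0.25 in KO, log2). Of the 8 neuron markers, 0 were called higher and 4 lower in WT, and 0 and 5 in KO. Slc17a7 had the largest fall, -1.69 in WT and -1.62 in KO (limma, adjusted p = 7.25e-07 and 3.28e-05). Astrocyte markers, 6 of 7 measured, summed to 548 to 754 CPM in normoxia and 992 to 1480 CPM under OGD, and markers of proliferating progenitors, all 7 measured, summed to 553 to 864 and 971 to 1560 CPM. The astrocyte sum is carried mostly by Slc1a3, a glutamate transporter, which rose by 1.08 in WT and 0.95 in KO on the log2 scale (limma, adjusted p = 6.95e-06 and 0.000135). Of the 6 astrocyte markers, 4 were called higher and 1 lower in WT, and 3 and 0 in KO. Gfap, an intermediate filament protein of astrocytes, fell in WT (-0.47; limma, adjusted p = 0.0434) and was not called in KO (-0.34; limma, adjusted p = 0.123), and the water channel gene Aqp4 had 0.05 and 0.01, neither called. None of the 7 microglia markers was listed in any table, and of 6 endothelial markers only Kdr was, in 3 tables. In bulk RNA, fewer cells of a type and less RNA per cell cannot be told apart.

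Levels are given below as CPM on 1 scale for all libraries, in the order of replicates 1 to 5, and fold changes come from limma fits of log2 CPM within each deposited table. A gene was called at an adjusted p under 0.05, adjusted by Benjamini-Hochberg over all genes of the table. Klf4, Irs2 and Egfr rose under OGD in both genotypes. In WT, 3 of the 7 genes were called, all higher, where 44.3% of the 14235 genes tested were called in either direction and 21.6% were called higher. In KO, 4 of 7 were called, also all higher, against 40.9% of 14375 genes in either direction and 21% higher. The median log2 fold change of the 7 genes was 0.23 in WT and 0.36 in KO, beside -0.03 and 0.00 over all genes.

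**Figure D2:**
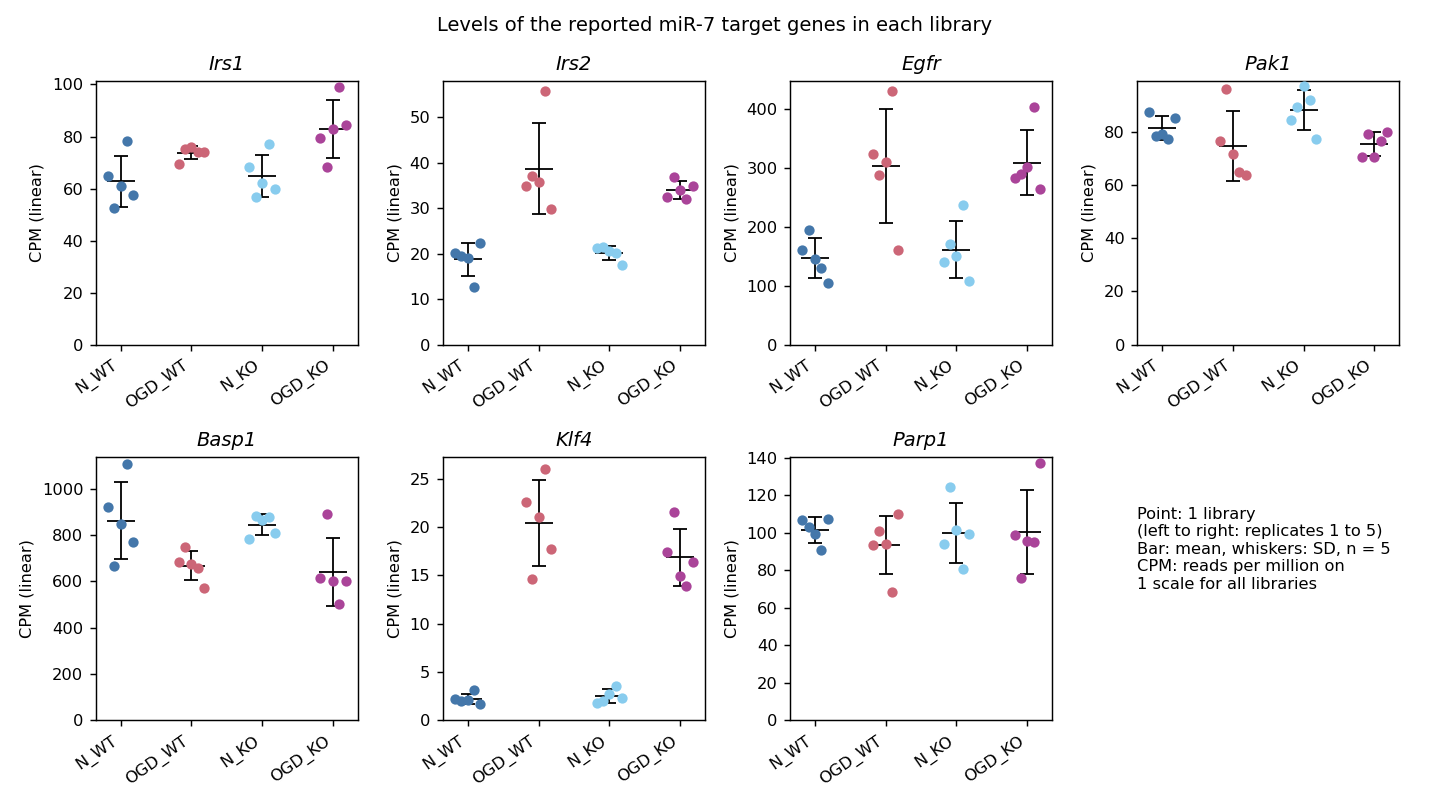
CPM of each gene in each library (points; replicates 1 to 5 from left to right), with the mean and SD of 5 libraries, on linear axes starting at 0. Klf4 lies between 1.69 and 3.598 CPM in all 10 normoxic libraries and between 13.9 and 26.04 CPM in all 10 OGD libraries.

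Egfr is a receptor tyrosine kinase for EGF family ligands. Its level in N_WT was 161.6, 195.2, 145.0, 131.1 and 104.5 CPM, and in OGD_WT 323.4, 288.0, 310.8, 431.6 and 160.9 CPM. The groups overlapped through OGD_WT replicate 5, which lay below N_WT replicates 1 and 2. With libraries of the same number paired by their labels as 1 culture, each of the 5 WT cultures was higher under OGD than in normoxia. The fitted change was 0.99 ± 0.21 (log2, SE), or 1.98-fold (limma, adjusted p = 0.000658). In N_KO the level was 140.8, 171.3, 151.5, 237.0 and 108.3 CPM, and in OGD_KO 283.6, 290.6, 301.6, 404.6 and 264.1 CPM. Every OGD_KO library was above every N_KO library, as was the case for 13.4% of genes, and the change was 0.97 ± 0.19 (limma, adjusted p = 0.000474). Over the 20 libraries Egfr correlated with the summed markers of proliferating progenitors at r = 0.91, and at r = 0.69 once group means were removed; for Klf4 these values were 0.92 and 0.24, and for Irs2 0.85 and 0.2. With the summed astrocyte markers they were 0.75 and -0.11 for Egfr, 0.9 and -0.86 for Klf4, and 0.87 and 0.09 for Irs2. With the summed neuron markers they were -0.46 and 0.43 for Egfr, -0.71 and 0.19 for Klf4, and -0.48 and 0.67 for Irs2. The libraries share treatment and depth, and the part of these cells in the changes was not tested.

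Irs2 and Irs1 are adaptor proteins that carry the signal of the insulin and IGF1 receptors. Irs2 was 20.2, 19.6, 19.0, 12.7 and 22.3 CPM in N_WT and 34.9, 37.2, 35.8, 55.8 and 29.9 CPM in OGD_WT. The groups did not overlap, as was true of 13.9% of genes in this direction, and culture 4 was both the lowest in normoxia and the highest under OGD. Irs2 rose 2.01-fold in WT (1.01 ± 0.17, log2, SE; limma, adjusted p = 9.2e-05). In KO it was 21.2, 21.5, 20.7, 20.1 and 17.5 CPM in normoxia and 32.5, 36.8, 34.0, 32.0 and 34.9 CPM under OGD, again without overlap. The KO change was 0.75 ± 0.13 (limma, adjusted p = 0.000165).

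Irs1 was 64.8, 52.5, 61.0, 78.3 and 57.6 CPM in N_WT and 69.5, 75.2, 76.1, 73.9 and 74.2 CPM in OGD_WT, so that N_WT replicate 4 exceeded every OGD_WT library. The WT change of 0.23 ± 0.14 was not called (limma, adjusted p = 0.186). In N_KO, Irs1 was 68.5, 56.6, 62.3, 77.0 and 59.95 CPM, and in OGD_KO 79.5, 68.2, 83.0, 99.0 and 84.5 CPM. These groups also overlapped, yet all 5 KO cultures were higher under OGD, and the change of 0.36 ± 0.14 was called by a narrow margin (limma, adjusted p = 0.0497). With the culture as a block the adjusted p was 0.0591, in batch 3 alone it was 0.454, and leaving out 1 library gave adjusted p from 0.0219 to 0.114, with the call lost in 8 of 10 cases. The difference between the KO and WT responses of Irs1 was 0.12 (95% interval -0.33 to 0.56).

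Pak1 is a serine/threonine kinase activated by Rac and Cdc42 that acts on the actin cytoskeleton. It was 87.3, 78.3, 79.1, 77.3 and 85.1 CPM in N_WT and 76.4, 96.0, 71.5, 65.0 and 63.5 CPM in OGD_WT. The OGD libraries spanned both the lowest and the highest of these values, and the change of -0.15 ± 0.14 was not called (limma, adjusted p = 0.403). In KO, levels were 84.2, 89.1, 97.2, 92.0 and 77.4 CPM in normoxia and 70.4, 79.0, 70.6, 76.4 and 79.7 CPM under OGD. The KO change was -0.21 ± 0.13 and was not called (limma, adjusted p = 0.204), while its unadjusted exact permutation p was 0.0238.

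Basp1, a membrane-bound protein of growth cones and nerve terminals, was the most abundant of the 7 genes also per length, at a mean of 429 CPM per kb of exon in N_WT, while Klf4 was the least abundant at 0.733. It was 919.6, 666.7, 845.8, 1107 and 769.7 CPM in N_WT and 684.7, 746.1, 674.6, 658.6 and 571.3 CPM in OGD_WT. Only OGD_WT replicate 2 was higher than its normoxic partner. The WT change of -0.36 ± 0.16 missed the threshold (limma, adjusted p = 0.0665), as did the KO change of -0.41 ± 0.17 (limma, adjusted p = 0.0679). In KO, levels were 782.9, 884.1, 866.6, 877.2 and 807.3 CPM in normoxia and 613.1, 891.5, 600.3, 502.2 and 603.7 CPM under OGD. There too replicate 2 was the exception. Unadjusted exact permutation tests gave p = 0.0238 in WT and 0.0476 in KO. With the clipping of the deposited values kept, both decreases passed (limma, adjusted p = 0.0113 in WT and 0.00503 in KO). In data simulated for N_KO against N_WT, 36.6% of calls were false with the clipping kept. The share for OGD against normoxia was not tested. Leaving out OGD_KO replicate 2 gave -0.54 in KO (limma, adjusted p = 0.00791), the only 1 of 10 left-out libraries with which the KO decrease passed. The WT decrease passed in 2 of 10, without replicate 2 of OGD_WT or of N_WT (limma, adjusted p = 0.0449 and 0.0278). The highest adjusted p over left-out libraries was 0.154 in WT and 0.145 in KO (limma). In batch 3 alone neither decrease passed (limma, adjusted p = 0.213 in WT and 0.531 in KO).

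Klf4, a zinc finger transcription factor of the Krüppel-like family known for roles in pluripotency and in limiting axon growth, showed the largest change of the 7 genes. It was 2.27, 2.01, 2.07, 3.14 and 1.69 CPM in N_WT, from 13 to 34 reads per library, and 22.6, 14.7, 21.1, 26.04 and 17.7 CPM in OGD_WT, from 157 to 350 reads. Every OGD_WT library exceeded every N_WT library. The fitted rise was 2.96 ± 0.18 (log2, SE), or 7.79-fold (limma, adjusted p = 7.53e-11), the 10th smallest p among 14235 genes. In KO it was 1.84, 2.06, 2.78, 3.598 and 2.36 CPM in normoxia and 17.4, 21.6, 14.9, 13.9 and 16.4 CPM under OGD, also without overlap. The KO rise was 2.57 ± 0.18, or 5.92-fold (limma, adjusted p = 9.43e-09), the 12th smallest p among 14375 genes. At these low normoxic levels the prior count in the log2 values understates the fold.

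Parp1 makes poly(ADP-ribose) chains at DNA breaks. It was 106.7, 103.1, 99.3, 90.9 and 107.5 CPM in N_WT and 93.5, 100.7, 94.1, 68.7 and 110.2 CPM in OGD_WT. The groups overlapped, and the change was -0.14 ± 0.15 (limma, adjusted p = 0.446). In KO it was 93.9, 124.2, 101.3, 80.8 and 99.2 CPM in normoxia and 98.7, 76.0, 95.8, 95.3 and 137.1 CPM under OGD. Cultures moved in both directions, and the KO change was 0.01 ± 0.16 (limma, adjusted p = 0.975). Parp1 and Irs2 both hold an 8mer, and they differed in their response to OGD by these values.

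**Figure D3:**
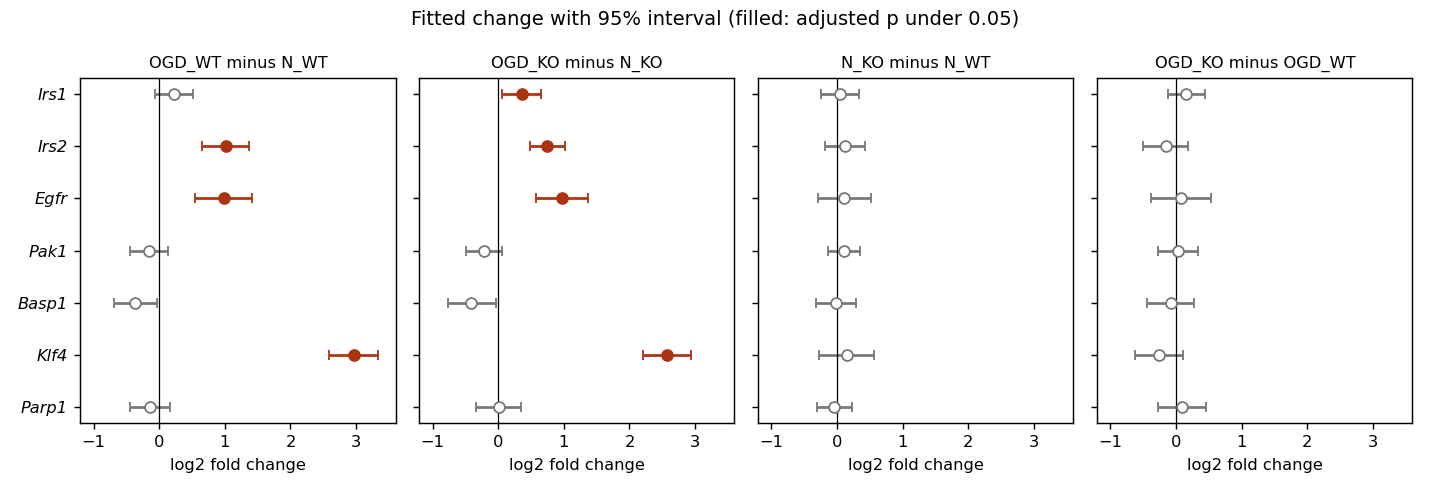
Fitted log2 fold change of each gene with its 95% interval in the 4 comparisons; filled symbols passed an adjusted p of 0.05. Klf4, Irs2 and Egfr are filled in both comparisons of OGD with normoxia, Irs1 in KO alone, and no gene is filled between genotypes.

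Cultures with batch labels 3.1, 3.2 and 3.3, grouped here as batch 3 by their first digit, were also fitted alone, 4 in WT and 3 in KO. Klf4 then changed by 2.93 in WT and 2.53 in KO, Irs2 by 1.07 and 0.81, and Egfr by 0.99 and 0.95 (log2), each with an adjusted p under the threshold in limma. The value nearest to it was that of Irs2 in KO (adjusted p = 0.0497). Batches 1 and 2 held at most 1 culture per genotype and gave no value.

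Exact two-sided permutation tests of OGD against normoxia over the libraries, not adjusted for the number of genes, can give no p below 0.00794. Klf4 and Irs2 reached this value in both genotypes, and Egfr did in KO, with an exact p of 0.0238 in WT. For Irs1 the exact p was 0.0556 in WT and 0.0159 in KO. Pak1 had an exact p of 0.19 in WT, and Parp1 had 0.31 in WT and 0.976 in KO. Pak1 in KO and Basp1 in both genotypes thus had an unadjusted exact p under 0.05 without being called by limma after adjustment over all genes.

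The comparison of KO with WT asks whether the RNA of reported miR-7 targets differs when ciRS-7 is missing. No difference was called for any of the 7 genes in normoxia or under OGD. By limma 0 of 7 passed in normoxia, where 0.0353% of 14152 genes did, and 0 of 7 under OGD, where 0.0282% of 14185 genes did. None of the 7 had an unadjusted p under 0.05 in either condition, where 1.81% and 1.78% of all genes had one. These shares are smaller than a threshold of 0.05 gives when no gene differs, so 0 of 7 says little about the 7 genes themselves. After TMM scaling of the recovered reads limma also called none. In normoxia the differences (KO minus WT, log2) ran from -0.04 for Parp1 to 0.14 for Klf4, and the widest interval, that of Klf4, was -0.27 to 0.56. Under OGD they ran from -0.27 for Klf4 (95% interval -0.63 to 0.10) to 0.15 for Irs1 (-0.13 to 0.44). For Egfr the intervals were -0.29 to 0.51 in normoxia and -0.38 to 0.53 under OGD, and for Irs2 -0.19 to 0.43 and -0.50 to 0.18. Pak1, without a seed match, had -0.14 to 0.35 and -0.28 to 0.33. Basp1 had -0.32 to 0.28 and -0.44 to 0.28, and Parp1 -0.31 to 0.23 and -0.27 to 0.45. Exact two-sided permutation tests over the libraries gave p of at least 0.183 in normoxia and 0.111 under OGD, where the smallest p possible was 0.00794. The order of the 4 group means had N_WT and N_KO as neighbours for every gene but Parp1. The libraries of WT and KO overlapped for all 7 genes in both conditions, where 0.325% of genes in normoxia and 0.345% under OGD did not overlap.

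The response to OGD was then compared between genotypes. The per-culture change of Klf4 (OGD minus N, log2) was 3.22, 2.77, 3.24, 2.98 and 3.26 in WT and 3.13, 3.28, 2.35, 1.90 and 2.71 in KO. The KO cultures spread more widely and reached lower, but overlapped the WT cultures. The interaction was -0.41 ± 0.28 (SE; 95% interval -0.99 to 0.17; limma, adjusted p = 1), and an exact permutation test over the 10 cultures gave p = 0.167. With 1 culture left out the Klf4 value ran from -0.56, without KO culture 2, to -0.24, without KO culture 4. For Irs2 the interaction was -0.27 (-0.75 to 0.20), and it ran from -0.40, without WT culture 5, to -0.02, without WT culture 4. For Egfr it was -0.03 (-0.74 to 0.69). The other 4 genes had interactions between -0.07 and 0.14. By limma 0 of the 7 genes were called, as were 0 of all 13688 genes (0%), and 0.731% of all genes, none of the 7 among them, had an unadjusted p under 0.05. At this share 0 of 7 says little about the 7 genes.

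**Figure D4:**
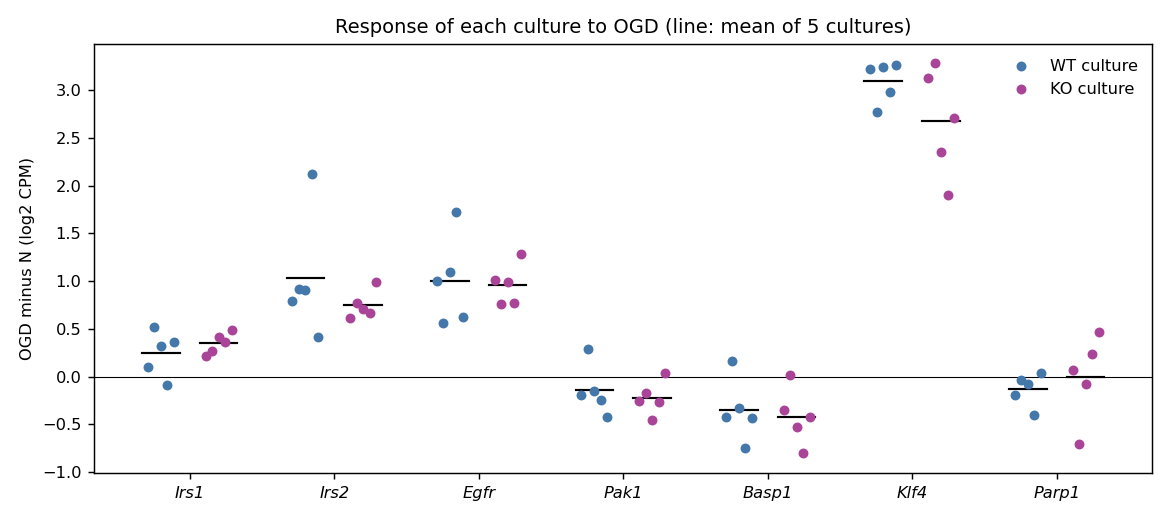
Change of each gene from normoxia to OGD in each culture (log2 CPM, points), with the mean of 5 cultures (line), WT beside KO. All 10 cultures lie above 0 for Klf4, Irs2 and Egfr, and WT and KO cultures overlap for every gene.

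A list of 30 other reported miR-7 targets, of which 29 were measured, is given beside the 7 genes. In WT 4 of 29 were called higher under OGD and 7 lower, with a median log2 fold change of -0.10, and in KO 4 were called higher and 5 lower, with a median of -0.14. The called share was 37.9% in WT and 31% in KO, below the 44.3% and 40.9% of all genes, whose median log2 fold changes were -0.03 and 0.00. Xrcc2, a DNA repair protein, had the largest called rise in WT, 1.05 (limma, adjusted p = 0.000624), and rose by 0.82 in KO (limma, adjusted p = 0.00344). Between genotypes 0 of 29 were called by limma in either condition, with or without TMM scaling. None had an unadjusted limma p under 0.05, where 1.81% of all genes in normoxia and 1.78% under OGD had one. Their median difference was 0.00 in normoxia and -0.02 under OGD, and 26 of the 29 hold a match of 7 or 8 bases.

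**Figure D5:**
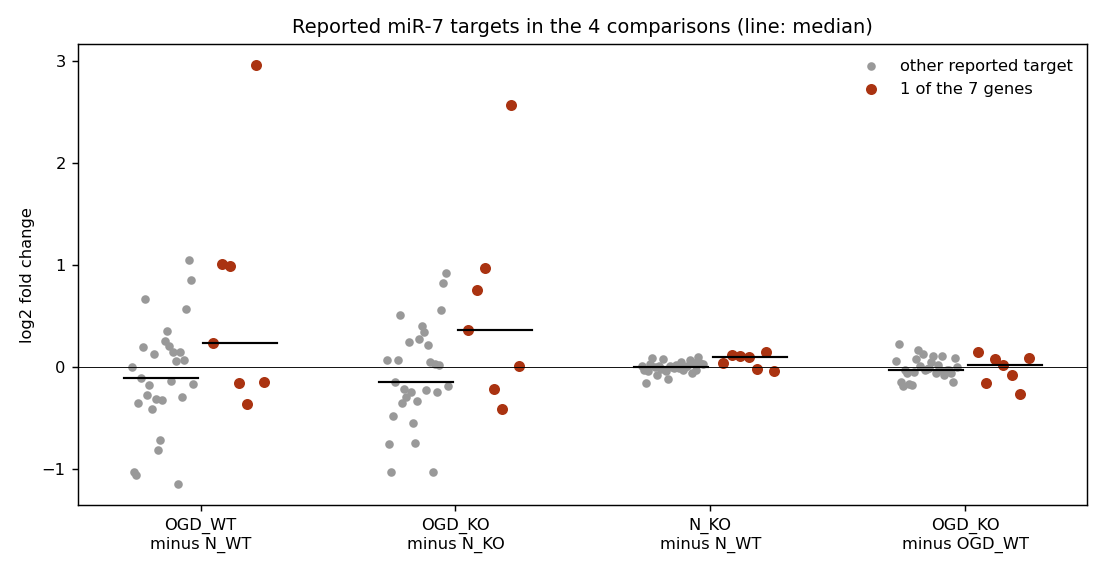
Fitted log2 fold change of the 29 other reported miR-7 targets (grey) and of the 7 genes (red) in each comparison, with the median of each set (line). Both sets spread under OGD, with Klf4 highest at 2.96 in WT and 2.57 in KO, and lie close to 0 between genotypes.

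Lists of genes that work with the 7 are given with their called shares, to be read against 44.3% of all genes in WT and 40.9% in KO. Of 24 insulin and IGF signalling genes, 6 were called higher and 3 lower in WT, and 6 and 2 in KO (37.5% and 33.3%). Igfbp2, an IGF binding protein, rose by 1.498 in WT (limma, adjusted p = 1.11e-06) and 1.37 in KO (4.8e-05), and Ptpn1, a phosphatase of the insulin receptor, fell by 0.63 in WT (limma, adjusted p = 0.00438) and by 0.55 in KO (0.0485). Of 12 ErbB ligands, receptors and feedback genes, 4 were higher and 2 lower in WT, and 3 and 2 in KO (50% and 41.7%). Lrig1, a feedback inhibitor of Egfr, rose by 0.92 in WT (limma, adjusted p = 0.000355) and 0.86 in KO (0.000198), while Grb2, the adaptor that links Egfr to Ras, fell by 0.63 in WT (limma, adjusted p = 0.00214) and by 0.60 in KO (0.00988).

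Of 12 other Krüppel-like factors, 4 were called higher and 5 lower in each genotype (75%). Klf5 rose by 0.97 in WT and 0.97 in KO (limma, adjusted p = 5.2e-05 and 0.000195), and Klf8 fell by 1.43 in WT and by 1.17 in KO (limma, adjusted p = 7.31e-07 and 1.29e-05). Of 13 PAK family members and partners, 1 was higher and 3 lower in each genotype (30.8%). These included Git2, a scaffold protein, higher by 0.39 in WT and 0.47 in KO (limma, adjusted p = 0.0323 and 0.031), and Pak5 with the largest WT fall, -0.68 in both (limma, adjusted p = 0.0026 and 0.00644). Of 16 PARP family members and partners, 4 were higher and 1 lower in WT, and 3 and 1 in KO (31.2% and 25%). Tiparp, a mono-ADP-ribosyltransferase, rose by 1.57 in WT and 1.24 in KO (limma, adjusted p = 2.9e-06 and 0.00143). Parp16 fell by 0.61 in WT and by 0.95 in KO (limma, adjusted p = 0.0226 and 0.0041). Its level was low, at mean log2 CPM of 1.3 in N_WT and 0.7 in OGD_WT, and 1.34 in N_KO and 0.38 in OGD_KO. Of 7 growth cone phosphoproteins, 0 were higher and 2 lower in each genotype (28.6%), and Gap43, which like Basp1 is a membrane-bound growth cone protein, fell by 0.81 in WT and by 0.89 in KO (limma, adjusted p = 0.00124 and 0.000839). Between genotypes none of these lists had a gene called by limma, with or without TMM scaling, or a gene with an unadjusted limma p under 0.05. Over all genes 1.81% in normoxia and 1.78% under OGD had such a p.

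The genes whose log2 levels followed each of the 7 most closely over the 20 libraries were taken by Pearson correlation among 12683 genes. For Klf4 they were Gem (r = 0.984), Nr4a1 (0.984) and Myl12a (0.978), and for Irs2 Pls1 (0.969), Zxdc (0.966) and ENSMUSG00000102049 (0.953). Egfr was followed by Bub1 (0.944), Gpc6 (0.940) and Qk (0.936). Basp1 was followed by Stmn1 (0.964), Fhod3 (0.938) and Camk2b (0.936). For Irs1 the genes were Cog3 (0.902), Zpr1 (0.895) and Vbp1 (0.881), for Pak1 Ddx24 (0.835), Ctnnbip1 (0.809) and Plcb1 (0.8), and for Parp1 Kdm4a (0.917), Ccdc93 (0.915) and Pik3c2b (0.911). With group means removed the values for the Klf4 genes were 0.625, 0.549 and 0.617, whereas those of Basp1 were 0.937, 0.883 and 0.902 and those of Parp1 0.962, 0.932 and 0.911. The libraries share treatment and depth, and these correlations are descriptions. Among the 7 genes themselves, Klf4 correlated with Irs2 at 0.88 and with Egfr at 0.83, and at -0.07 and 0.36 within groups.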

How the data were processed

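RNA of mouse cortical neurons was sequenced in 20 libraries in 4 groups of 5, with SMARTer stranded total RNA libraries, per the labels' protocols. The authors deposited log2 CPM values in 4 tables of 10 libraries each (14152 to 14375 genes). The build was mm10, per the submitters' processing notes; the aligner, counting, annotation and gene filter are not given in the sources used here. In each gene and group, the 2 extreme deposited values lay at percentiles 10 and 90 (0.6 of the extreme plus 0.4 of its neighbour), as inferred from the values. This clipping was undone: at least 99.909% of values up to 500 reads then came out whole within 0.05 reads, against 45.5% to 92.8% as deposited, and at least 99.978% of genes had the same reads in both tables that hold a library. As deposited, 78.0% to 92.8% were whole in libraries of replicates 1 and 3, and 45.5% to 57.0% in those of the other replicates. Replicates 1 and 3 were thus less often the lowest or highest of their group. They also had the highest median correlations with their own group in all 4 groups. The cause was not tested. In data simulated for N_KO against N_WT (14152 genes, 200 changed), the fit recovered 96% of genes changed by 1 on the log2 scale. It recovered 100% of those changed by 2, with 6.2% of calls false. With the clipping kept, 36.6% were false. With the clipping undone, 4.95% of the unchanged genes had an unadjusted limma p under 0.05. In the measured libraries 1.81% of all genes did, so these shares of false calls may not hold there. Recovery of changes smaller than 1 was not tested.

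Each comparison was fitted in its own table with limma 3.58.1 in R 4.3.3 (trend, no block), two-sided. The interaction used the 13688 genes of all tables on library totals at a prior count of 2. The culture was a block (duplicateCorrelation), with a consensus correlation of -0.169. The per-culture changes and exact tests printed beside the interaction are on the joint TMM scale. With other settings, TMM scaling among them, the Klf4 interaction ran from -0.42 to -0.41. Levels are on a joint TMM scale, chosen after seeing that library totals lowered the median gene by 0.30 in WT under OGD. TMM factors were computed from the recovered reads by the published formula. Alternatives were the deposited values as they stand, TMM scaling, another prior count (0.5) and filter, batch terms and left-out libraries. Values of count models are not reported, since the deposited unit is log2. N and OGD libraries of the same number share genotype label and batch, and so pair by the labels. Each such pair is called a culture here. Their deviations correlated at -0.643 to 0.057 in WT and -0.79 to -0.065 in KO, so that the libraries of a pair did not deviate alike. The lowest value in each genotype was that of replicate 3, the only culture with batch label 3.2 (WT) or 2 (KO). The cause of these negative values was not tested. All 7 members were named, with the called gene of largest rise and fall in WT from each list and the 3 most alike genes per member; 1 gene that this rule names is not reported here. Members and lists were chosen with earlier results of these data known.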

Additional observations from a re-analysis of the deposited data

Results flagged for a closer look

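Irs2 in N_WT replicate 4 was 3.68 log2 CPM, while the other 4 N_WT libraries lay between 4.26 and 4.49. The gap to the nearest library was 0.715 of the range of the group, above the 95% limit of 0.71 for 5 values. It was 1 of 28 gene and group combinations examined, of which chance alone gives about 1.4. Leaving out 1 library at a time, this one among them, kept the WT change of Irs2 between 0.87 and 1.09.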

How the results depend on the processing

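Klf4, Irs2 and Egfr stayed called and higher under OGD in both genotypes under every alternative run, and none of the 7 genes was called between genotypes or in the interaction under any. With the clipping kept, 5 members were called in WT, Basp1 and Irs1 being added. Over left-out libraries, members called ranged from 3 to 4 in WT and from 3 to 5 in KO.

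Over all genes, batch 3 alone called 2341 in KO under OGD, against 5884. Between genotypes in normoxia (5 genes called), 9 were called with the clipping kept, 3 among genes averaging 1 log2 CPM or more, 2 in batch 3 alone, 3 with a replicate block and 11 with the batch label. Under OGD (4 called) there were 12 with the clipping kept, 1 at a prior count of 0.5, 2 with a replicate block and 17 with the batch label. WT and KO libraries of the same number share a batch label only in replicate 1. A replicate block between genotypes thus joins cultures that the labels do not link. Batch labels were also unbalanced, with label 2 in KO alone and label 3.2 in WT alone. Left-out libraries gave 5250 to 6635 genes for OGD in WT, 4908 to 5930 in KO, 3 to 5 between genotypes in normoxia and 1 to 7 under OGD. For OGD, leaving out a library of replicate 1 or 3 gave 5250 to 5619 genes in WT and 4908 to 5211 in KO. Leaving out one of replicates 2, 4 or 5 gave 5819 to 6635 and 5455 to 5930. Batch 3 alone in KO also held no library of replicates 1 and 3. The cause of these shifts was not tested, except that fewer samples or genes entered some fits. The replicate block ended 1 call of a member, that of Irs1 in KO (adjusted p = 0.0591, limma), and no other.

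Only differences near 0 changed sign. Basp1 between genotypes in normoxia was 0.03 in batch 3 alone. With 1 library left out, differences in normoxia (KO minus WT) ran from -0.10 to 0.08 for Basp1, -0.02 to 0.13 for Irs1, -0.04 to 0.24 for Egfr, -0.12 to 0.03 for Parp1 and -0.01 to 0.19 for Irs2. Under OGD they ran from -0.21 to 0.00 for Basp1, -0.13 to 0.22 for Egfr, -0.03 to 0.18 for Parp1 and -0.03 to 0.12 for Pak1. The KO response of Parp1 ran from -0.11 to 0.10, and interactions with 1 culture left out from -0.18 to 0.07 for Basp1, -0.12 to 0.04 for Pak1 and -0.14 to 0.13 for Egfr. Of the 21 most alike genes, 16 were the same on library totals. The planned count models were run on the recovered reads, but their values are not given, since the deposited unit is log2 CPM. Their calls for the 7 genes differed from limma's in that DESeq2 called Basp1 lower under OGD in both genotypes and edgeR did not call Irs1 in KO. Klf4 in normoxia rests on 13 to 38 reads per library, which limits its precision.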
